A study of Mus musculus with 6 samples.

Results

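Myosin heavy and light chain genes were followed in differentiated cells made from the mouse embryonic stem cell line J1 (strain 129S4/SvJae). The members are the protein-coding genes of the deposited tables whose symbol is Myh or Myl, a number and at most 1 further letter, together with Mylpf. There are 10 of them among 2031 genes. They are the heavy chains Myh3, Myh6, Myh7, Myh10 and Myh13 and the light chains Myl2, Myl3, Myl4, Myl7 and Mylpf. Of 26 mouse heavy and light chain genes written down as a list, the other 16 were not analysed here, among them Myh9, Myh11, Myl1 and Myl9.

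Controls (NC, 3 libraries) grew in a conventional incubator, and the exposed cells (MF, 3 libraries) grew under a static magnetic field. Both groups came from the same cell line and were induced towards heart muscle by the hanging drop method, in which cell clusters called embryoid bodies formed within 3 days. The strength and length of exposure and the day of sampling are not stated in the labels. The series text speaks of biological triplicates without saying what was repeated. In these bulk samples a change in the number of muscle cells and a change of RNA per cell cannot be told apart.

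Myosin is the motor protein that pulls on actin filaments. Each molecule has a pair of heavy chains, which carry the motor, and on each heavy chain sit an essential and a regulatory light chain. Muscles are told apart by the chains they use: the heart uses alpha and beta cardiac heavy chains with atrial or ventricular light chains, skeletal muscle has its own embryonic, adult and specialised chains, and non-muscle cells use further heavy chains for cell shape and division. In the mouse heart the atrial and ventricular light chains separate as the chambers form, so the light chains are commonly read as chamber markers.

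No gene in the authors' deposited table has an adjusted p above 0.0499 or an absolute log2 fold change below 1.00104. So the tables hold genes picked for differing between the incubators, and small fold changes are absent from them. Medians over all tested genes are taken without such small changes. The members are therefore in the tables because they differed, and the direction and size of their changes are described here without being counted as independent support. All 10 members passed the filter of a mean of 0.5 FPKM (counts scaled to gene length in kilobases and to the library total) over the 6 libraries. At a Benjamini-Hochberg adjusted p under 0.05 in the quasi-likelihood test of edgeR, run over 1651 genes, 7 members rose and 3 fell in MF. Of all tested genes 62.1% rose and 35.4% fell by the same rule, and 97.5% were called in either direction, so the calls are close to the background. The split of all calls depends on scaling, with 1026 genes higher and 584 lower by library totals, 158 and 507 by median-of-ratios, and 291 and 589 by TMM. When the adjustment ran over 19069 tests, the number implied by the deposited p-values, edgeR called 0 members and 0 genes in all. DESeq2, adjusted over the 1651 genes, called the 7 higher and the 3 lower, and all 10 had an unadjusted edgeR p under 0.05. The median log2 fold change was 2.83 over the members and 1.22 over all tested genes.

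Library totals lay between 14929232 and 19176383 counts, and the members took between 0.0359% and 0.150% of them. MF replicate 2 stood apart from the other exposed libraries. Among the 1026 genes that rose it was the lowest MF library for 83.2%, and among the 584 that fell it was the highest for 89.9%. The median rise in that library was 0.95 log2 units over the NC mean, against 1.73 and 1.67 in MF replicates 1 and 3. The fold change of each member is therefore given with and without it, while other genes are given with all 6 libraries. Without MF replicate 2 the members called were again 7 higher and 3 lower, beside 996 and 582 of the 1651 tested genes. Without both replicate 2 libraries they were 7 and 3, beside 1027 and 582.

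The starts of 5 members are shown first, as the genes whose transcripts moved in opposite directions. Each run is the 250 bases before a RefSeq start site on GRCm38.p6, printed 5′ to 3′ in the direction of transcription. Capitals mark matches to any of 6 promoter motifs: the CArG box (bound by serum response factor), the MEF2 site, the E-box CANNTG (bound by basic helix-loop-helix factors such as the myogenic ones), GATAA (GATA factors), CATTCC (the M-CAT element of TEAD factors) and TATAAA. All but TATAAA were searched on both strands. Myl3, Myl7 and Myh6 are shown from the cardiac chains, and Mylpf and Myh3 from the skeletal chains.
Myl3, chr9:110763428-110763677, + strand: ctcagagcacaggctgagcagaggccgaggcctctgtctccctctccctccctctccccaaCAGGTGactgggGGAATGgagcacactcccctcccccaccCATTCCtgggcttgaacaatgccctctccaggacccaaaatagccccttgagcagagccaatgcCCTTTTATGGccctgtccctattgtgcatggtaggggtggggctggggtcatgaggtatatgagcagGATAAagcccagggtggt
Myl7, chr11:5898783-5899032, - strand: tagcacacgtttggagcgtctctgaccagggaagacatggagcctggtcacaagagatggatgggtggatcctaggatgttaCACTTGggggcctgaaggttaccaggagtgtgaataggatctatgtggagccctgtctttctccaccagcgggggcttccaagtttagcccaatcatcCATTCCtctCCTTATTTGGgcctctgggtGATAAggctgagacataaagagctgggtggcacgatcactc
Myh6, chr14:54966608-54966857, - strand: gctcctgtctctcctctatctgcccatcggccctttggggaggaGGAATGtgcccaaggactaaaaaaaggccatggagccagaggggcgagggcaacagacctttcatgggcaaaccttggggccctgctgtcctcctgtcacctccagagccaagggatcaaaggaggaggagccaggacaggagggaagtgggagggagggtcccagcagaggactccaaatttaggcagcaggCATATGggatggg
Mylpf, chr7:127211358-127211607, + strand: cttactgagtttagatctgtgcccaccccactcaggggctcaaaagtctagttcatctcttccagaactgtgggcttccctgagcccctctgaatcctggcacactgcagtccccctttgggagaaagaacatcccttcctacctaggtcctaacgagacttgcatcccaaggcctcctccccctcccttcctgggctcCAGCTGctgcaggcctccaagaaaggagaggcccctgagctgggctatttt
Myh3, chr11:67078050-67078299, + strand: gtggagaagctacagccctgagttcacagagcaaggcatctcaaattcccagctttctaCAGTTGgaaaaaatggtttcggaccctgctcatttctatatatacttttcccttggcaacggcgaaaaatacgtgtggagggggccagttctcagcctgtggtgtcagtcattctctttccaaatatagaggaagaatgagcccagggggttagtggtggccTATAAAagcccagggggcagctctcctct

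Shares were counted over single RefSeq windows that run from 250 bases before to 50 bases after the start. A member was counted where any of its windows matched, so the member counts and the shares differ in unit. Myl2 and Myh7 have more than 1 window, and GATAA in Myl2 and CATTCC in Myh7 match in only 1 of them. The runs of the light chains Myl3 and Myl7 each hold a CArG box, at bases -85 and -61 from the start site, with a GATAA match and at least 1 CATTCC match, read on either strand. A CArG box was found in the windows of 3 of the 10 members (Myl3, Myl7 and Myh13) and in 1.63% of the 32851 promoter windows of the RefSeq table. GATAA was found in 3 members and 25.4% of windows, CATTCC in 5 members and 14.7%, CANNTG in 9 members and 72.3%, and TATAAA in 2 members (Myh6 and Myh3) and 8.32%. The MEF2 site was found in 0 members and 3.19% of windows. The window of Myl4, a cardiac chain, held no match to any of the motifs, so the runs shown are not typical of every cardiac chain. In the Myh10 window a CATTCC and a CANNTG match share bases. The TATAAA of Myh6 begins 1 base after the start site and so lies after the run shown, and that of Myh3 begins at base -29. The start sites listed for Myl2 lie 8227 and 7762 bases before the start of the deposited gene, so they are not shown, though they are counted. The start sites of Mylpf and Myl3 lie 2718 and 21817 bases inside the deposited genes. A match is a run of letters, not a bound site.

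The cardiac heavy chains were both higher in MF. Myh6 encodes the alpha chain, the fast motor of the atria and of the adult mouse ventricle (mm10 chromosome 14, 54941921 to 54966927, minus strand). It stood at 1.02, 1.05 and 1.49 FPKM in NC replicates 1 to 3 and at 30.7, 10.8 and 16.1 FPKM in MF replicates 1 to 3. The groups did not overlap, and the lowest exposed library was several times above the highest control. In all, 5 members (Myh6, Myl2, Myl3, Myl4 and Myh10) had every MF library above every NC library and 3 had every MF library below, against 58.4% and 34.2% of all tested genes. Together these are 8 of 10 members, against 92.5% of tested genes. The rise was 16.2-fold (log2 fold change 4.02, SE 0.51, n = 3 and 3, adjusted p = 0.00486 by edgeR) and 19.7-fold without MF replicate 2. Leaving out each library in turn kept it past the threshold.

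Myh7 encodes the beta chain, the slower motor of the embryonic ventricle and of slow skeletal fibres, and lies 3756 bases from Myh6 on the same strand (mm10 chromosome 14, 54970684 to 54994626). It stood at 0.986, 0.382 and 2.29 FPKM in NC and at 18.6, 2.23 and 11.2 FPKM in MF. The groups overlapped, since MF replicate 2 lay just below NC replicate 3, while the other 2 exposed libraries were well above all controls. The rise was 8.76-fold (log2 fold change 3.13, SE 0.83, adjusted p = 0.0197 by edgeR). It was not past the threshold without MF replicate 3 (adjusted p = 0.0733) or with median-of-ratios scaling (0.0645). The rise was 12.2-fold without MF replicate 2, 15.6-fold without NC replicate 3 and 5.50-fold without MF replicate 1.

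The balance of alpha to beta chain was not the same in all libraries. The ratio of Myh6 to Myh7 in FPKM was 1.03, 2.76 and 0.654 in NC and 1.65, 4.86 and 1.44 in MF. It uses the deposited gene lengths, 6726 bases for Myh6 and 8616 for Myh7. The longest protein-coding transcripts have 6113 and 6230 bases, and by those lengths every ratio would be lower. In NC replicate 1 the raw counts were 107 for Myh6 and 133 for Myh7. The ranges of the groups overlap, and in each group replicate 2 has the highest ratio. The coding sequences of both genes are alike: of the 100-base stretches of the longest Myh6 transcript 11.4% also occur in Myh7, and of the 50-base stretches 22.6%. How reads that fit both genes were counted is not stated in the labels, so a part of each gene's counts may belong to the other. Exons of genes on the opposite strand, Mhrt, Gm31251 and Gm29015, cover between 1.65% and 6.07% of the exon bases of Myh7 each, and strand use in counting is not given either.

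**Figure D1:**
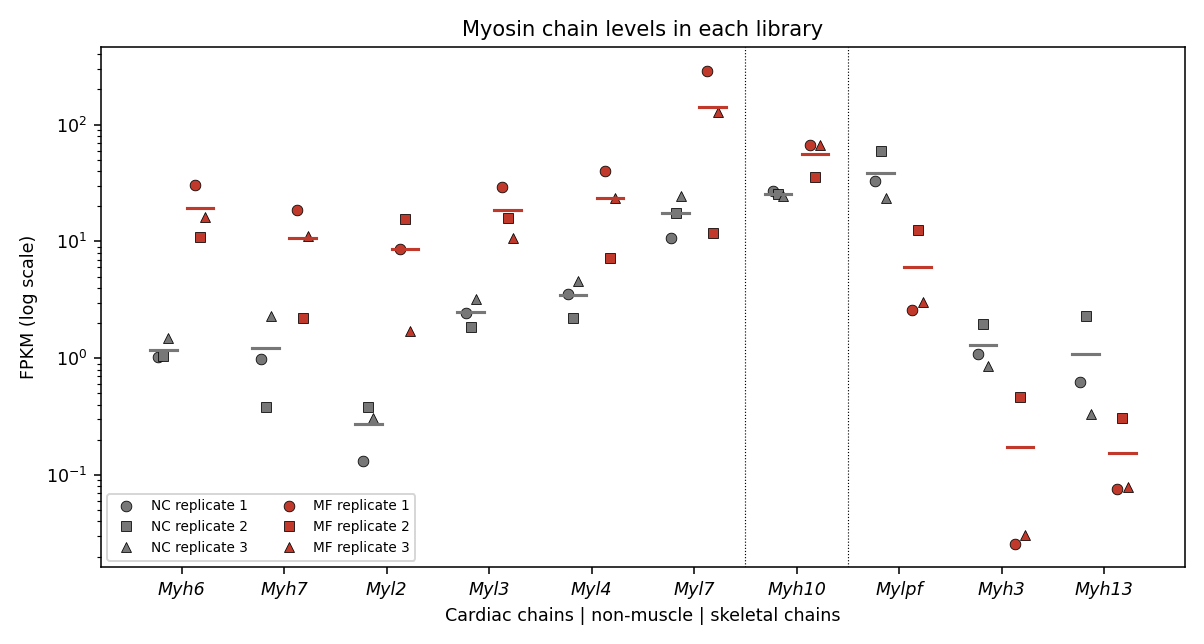
FPKM of the 10 myosin genes in each library on a log axis, with NC in grey and MF in red, marker shapes for replicates 1 to 3 and short lines for group means. The 6 cardiac chains and Myh10 have higher MF means and the 3 skeletal chains lower ones, and MF replicate 2 (red squares) lies within or next to the NC values for Myl7 and Myh7.

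The ventricular light chains rose in all 3 exposed libraries. Myl2 is the regulatory light chain of the ventricle and of slow skeletal muscle (mm10 chromosome 5, 122100951 to 122113472, plus strand). It stood at 0.131, 0.382 and 0.309 FPKM in NC, which are 4, 12 and 9 counts, and at 8.58, 15.6 and 1.70 FPKM in MF. The groups did not overlap, and in contrast to most genes that rose, MF replicate 2 was the highest library and MF replicate 3 the lowest. The counting interval (exact Poisson, 95%, counting error only) of NC replicate 2 reached 0.667 FPKM and that of MF replicate 3 began at 1.28 FPKM. The rise was 31.0-fold (log2 fold change 4.96, SE 0.87, adjusted p = 0.0111 by edgeR), the largest among the members, and 18.5-fold without MF replicate 2.

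Myl3 is the essential light chain that goes with Myl2 in the ventricle and in slow skeletal muscle (mm10 chromosome 9, 110741861 to 110769798, plus strand). Its levels were 2.44, 1.85 and 3.21 FPKM in NC and 29.4, 15.8 and 10.8 FPKM in MF. The groups did not overlap, and MF replicate 2 lay between the other exposed libraries. The rise was 7.46-fold (log2 fold change 2.90, SE 0.51, adjusted p = 0.0111 by edgeR) and 8.03-fold without MF replicate 2, and it stayed past the threshold with each library left out. Exons of Pth1r on the opposite strand cover 4.65% of its exon bases, and those of Ccdc63 cover 3.08% of Myl2.

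The atrial light chains were higher in MF replicates 1 and 3 and much less so, or not at all, in MF replicate 2. Myl4 is the essential light chain of the atrium and of embryonic muscle (mm10 chromosome 11, 104550663 to 104595753, plus strand). It stood at 3.58, 2.21 and 4.58 FPKM in NC and at 39.9, 7.16 and 23.5 FPKM in MF, with no overlap. Its rise was 6.80-fold (log2 fold change 2.77, SE 0.62, adjusted p = 0.0142 by edgeR). It was 4.43-fold without MF replicate 1 and 9.17-fold without MF replicate 2, and it was not past the threshold without MF replicate 3 (adjusted p = 0.0625).

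Myl7 is the regulatory light chain of the atrium and of the early heart tube (mm10 chromosome 11, 5896637 to 5898782, minus strand). By FPKM it was the most abundant of the cardiac chains in every library other than MF replicate 2. It stood at 10.7, 17.6 and 24.3 FPKM in NC and 288, 11.7 and 129 FPKM in MF. This rank depends on the deposited gene lengths, 590 bases for Myl7 and 4637 for Myl4. In raw counts Myl4 exceeded Myl7 in every library other than NC replicate 2, where they had 165 and 167. For Myl7, MF replicate 2 lay inside the range of the controls, at 0.668 times their mean. MF replicates 1 and 3 were 16.4 and 7.35 times the NC mean. The fitted rise was 8.15-fold (log2 fold change 3.03, SE 0.89, adjusted p = 0.0236 by edgeR). Blocking on replicate number made it 4.77-fold and not past the threshold (adjusted p = 0.0629). It was also not past the threshold in limma on log2(FPKM + 1) (0.0576), with TMM (0.0705) or median-of-ratios scaling (0.156), or without MF replicate 1 (4.01-fold, 0.0509), MF replicate 3 (0.0792) or NC replicate 1 (0.0525). Without MF replicate 2 the rise was 11.9-fold (0.00354).

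The cardiac chains differed in how far the exposed libraries lay apart. From the highest to the lowest MF library Myl7 spanned 24.6-fold, Myl2 9.17-fold, Myh7 8.34-fold, Myl4 5.57-fold, Myh6 2.83-fold and Myl3 2.72-fold. The highest library was MF replicate 1 for Myh6, Myh7, Myl3, Myl4 and Myl7 and MF replicate 2 for Myl2. The lowest was MF replicate 2 for Myh6, Myh7, Myl4 and Myl7 and MF replicate 3 for Myl2 and Myl3. Each library is 1 sample, so these differences between exposed libraries have no replicate.

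**Figure D2:**
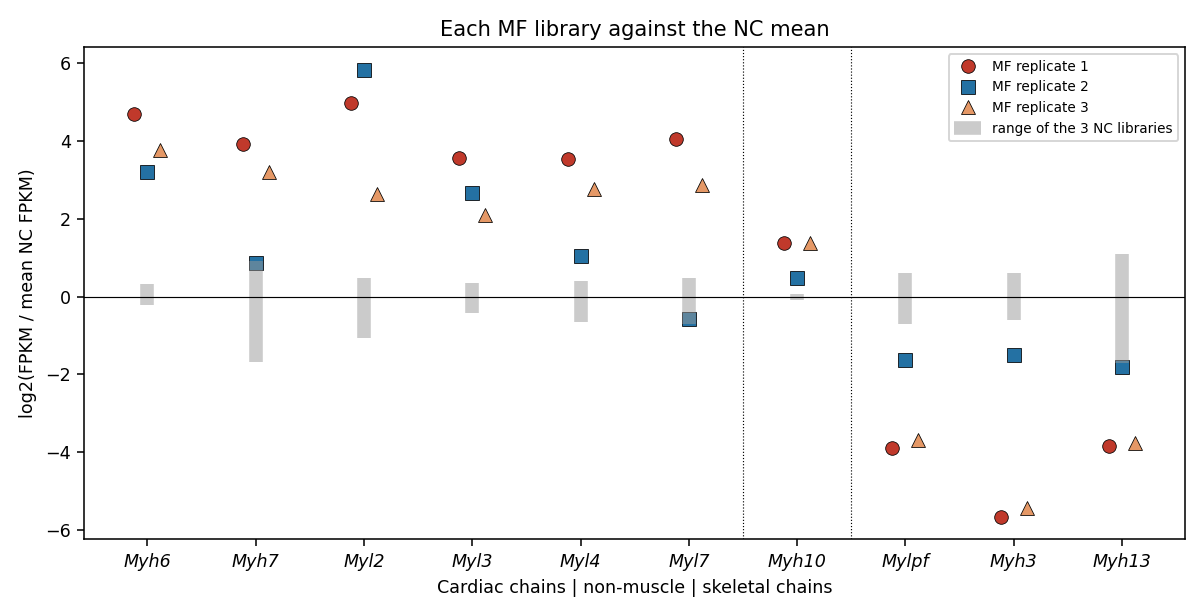
Log2 ratio of each MF library to the mean NC FPKM for every member, with grey bars for the range of the 3 NC libraries. MF replicate 2 (blue squares) is the highest exposed library for Myl2 at 5.83 and the lowest for Myl7 at -0.58, inside the control range.

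The make-up of the cardiac light chain transcripts differed in MF replicate 2 from that in the other 5 libraries. Myl7 held 63.5%, 79.8% and 75.0% of the summed FPKM of Myl2, Myl3, Myl4 and Myl7 in NC replicates 1 to 3, and 78.7% and 78.2% in MF replicates 1 and 3. In MF replicate 2 it held 23.3%. Myl2 held between 0.777% and 1.74% in the controls, 2.35% and 1.03% in MF replicates 1 and 3, and 31.0% in MF replicate 2. The ratio of Myl2 to Myl7 lay between 0.0122 and 0.0298 in 5 libraries and was 1.33 in MF replicate 2. So the shares in MF replicates 1 and 3 were near those of the controls although the summed level of the 6 cardiac chains was far higher, at 415 and 192 FPKM against 18.9 to 36.2 FPKM in NC. MF replicate 2 had a summed level of 63.3 FPKM. These shares rest on the deposited gene lengths, which are 590 bases for Myl7, 4637 for Myl4, 2044 for Myl3 and 1950 for Myl2. The longest protein-coding transcripts have 590, 943, 937 and 889 bases in the same order. By transcript length the share of Myl7 would be lower in every library. The lengths are the same for all libraries.

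**Figure D3:**
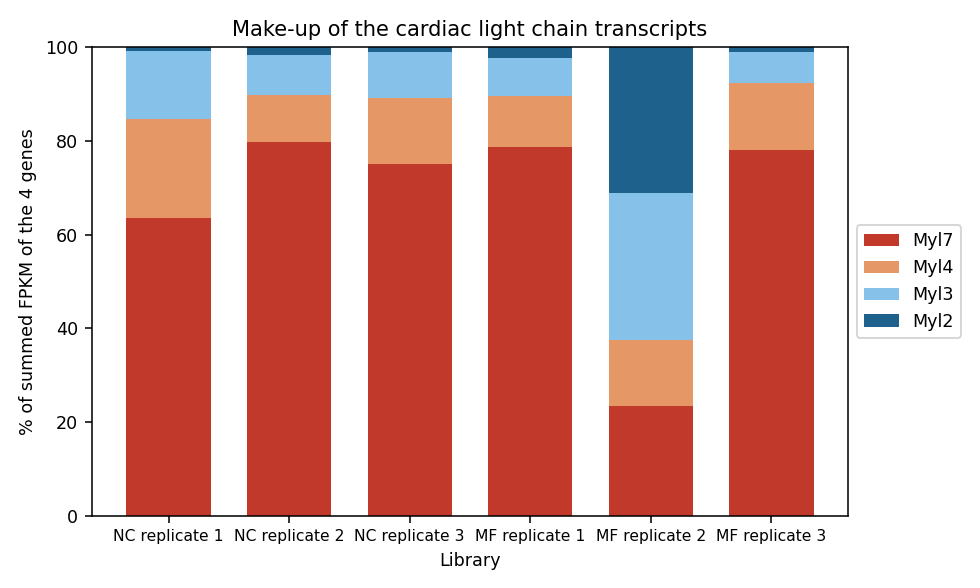
Stacked bars of the share of Myl7, Myl4, Myl3 and Myl2 in their summed FPKM for each library, in percent. FPKM uses the deposited gene lengths. Myl7 takes at least 63.5% in 5 libraries and 23.3% in MF replicate 2, where Myl2 and Myl3 take 31.0% and 31.4%.

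Myh10 encodes non-muscle myosin heavy chain IIB, which works in cell division, migration and the growth of the embryonic heart wall (mm10 chromosome 11, 68691559 to 68816632, plus strand). It was the most evenly expressed member, at 26.8, 25.7 and 24.3 FPKM in NC and 67.0, 35.7 and 66.4 FPKM in MF. The groups did not overlap. The rise of 2.20-fold (log2 fold change 1.14, SE 0.41, adjusted p = 0.0307 by edgeR) was the smallest among the members. It was close to the median of 1.22 over all tested genes. It also lay not far above the smallest fold change in the authors' table, so genes with smaller changes are missing from this comparison. The rise was not past the threshold with median-of-ratios scaling (log2 fold change 0.01, adjusted p = 0.993) or TMM (0.39, adjusted p = 0.306). Those scalings centre the table on its own genes and moved the median log2 fold change of all tested genes by -1.05 and -0.70. The rise was also not past the threshold with any 1 library left out other than MF replicate 2, with adjusted p from 0.0596 to 0.104, and without MF replicate 2 it was 2.61-fold. Among the member heavy chains Myh10 held 81.8% to 87.8% of the summed FPKM in NC and 57.6% to 72.1% in MF, while Myh6 went from 3.33% to 5.11% in NC to 17.2% to 26.4% in MF.

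The skeletal chains were lower in MF. Mylpf is the regulatory light chain of fast skeletal muscle (mm10 chromosome 7, 127208890 to 127214298, plus strand). It had the highest mean of all members in NC, with 33.1, 59.4 and 23.7 FPKM, and stood at 2.60, 12.6 and 3.01 FPKM in MF. The groups did not overlap, and replicate 2 was the highest library of each group. It fell 6.40-fold (log2 fold change -2.68, SE 0.68, adjusted p = 0.0185 by edgeR), and 13.8-fold without MF replicate 2. Without MF replicate 3 it was not past the threshold (adjusted p = 0.0817).

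Myh3 is the embryonic skeletal heavy chain (mm10 chromosome 11, 67078300 to 67102291, plus strand). It stood at 1.09, 1.98 and 0.863 FPKM in NC and at 0.0258, 0.462 and 0.0304 FPKM in MF. MF replicates 1 and 3 had 3 counts each, at the limit that a count of 0 allows, and MF replicate 2 had 47. The groups did not overlap. The fall was 7.56-fold (log2 fold change -2.92, SE 1.02, adjusted p = 0.0291 by edgeR) and rests on MF replicate 2 for its size, since it was 44.8-fold without that library. Blocking on replicate number made it 13.8-fold (adjusted p = 0.00514). It missed the threshold without MF replicate 1 (0.0579), MF replicate 3 (0.0970), NC replicate 1 (0.0516) or NC replicate 2 (0.0672), and with median-of-ratios scaling (0.0617).

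Myh13, a heavy chain of the eye and larynx muscles, lies 219366 bases from Myh3 in the skeletal heavy chain cluster (mm10 chromosome 11, 67321658 to 67371586, plus strand). It stood at 0.620, 2.31 and 0.336 FPKM in NC and at 0.0759, 0.308 and 0.0795 FPKM in MF, which are 9, 32 and 8 counts. The groups came close without overlapping: the counting interval of MF replicate 2, from 0.211 to 0.435 FPKM, covers the value of NC replicate 3. The fall was 7.02-fold (log2 fold change -2.81, SE 0.89, adjusted p = 0.0253 by edgeR), and it rests in part on NC replicate 2, since without it the fall was 3.09-fold and not past the threshold (adjusted p = 0.0874). It was 13.8-fold without MF replicate 2. Without MF replicates 1 or 3 it missed the threshold (0.0562 and 0.0935), as it did in limma on log2(FPKM + 1) (0.0745). Of the 50-base stretches of the longest Myh13 transcript 8.45% occur in other genes, most often in Myh8, and for Myh3 the share is 4.81%.

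**Figure D4:**
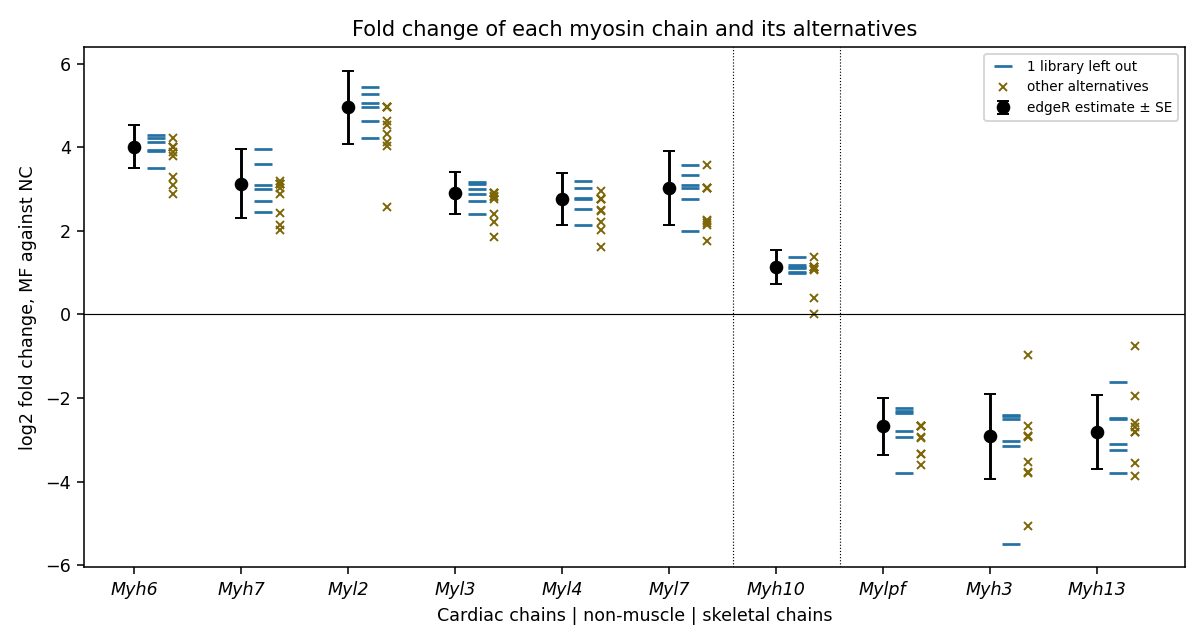
Log2 fold change of MF against NC for each member from edgeR (black, bars are SE), with blue dashes for fits that leave out 1 library and crosses for the other alternatives. The cardiac chains stay above 0 and the skeletal chains below 0 in every fit shown, and Myh10 reaches 0.01 with median-of-ratios scaling.

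The sizes of the fold changes depend on the scaling. With median-of-ratios scaling the fitted values, MF over NC, were 7.39-fold for Myh6, 4.06-fold for Myh7, 16.5-fold for Myl2, 3.62-fold for Myl3, 3.06-fold for Myl4 and 3.38-fold for Myl7, all smaller than with library totals. With TMM they were 9.72-fold, 5.36-fold, 19.9-fold, 4.63-fold, 4.09-fold and 4.69-fold in the same order. The fitted values of the skeletal chains, NC over MF, were larger than with library totals, at 12.2-fold for Mylpf, 13.6-fold for Myh3 and 14.6-fold for Myh13 with median-of-ratios and 10.1-fold, 11.6-fold and 11.7-fold with TMM. By the edgeR adjusted p, Myh7, Myl7, Myh3 and Myh10 were not past the threshold with median-of-ratios scaling, nor were Myl7 and Myh10 with TMM.

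Ranks within a group depend on the deposited gene lengths. For Myl4 this length is 4637 bases, against 943 in its longest protein-coding transcript, and for Myl7 it is 590 in both. By FPKM at the deposited lengths, the order of the members changed between the groups. In NC it was Mylpf (38.7 ± 18.5 FPKM, SD, n = 3), Myh10 (25.6 ± 1.27), Myl7 (17.5 ± 6.79), Myl4 (3.46 ± 1.19), Myl3 (2.50 ± 0.682), Myh3 (1.31 ± 0.590), Myh7 (1.22 ± 0.973), Myh6 (1.19 ± 0.266), Myh13 (1.09 ± 1.07) and Myl2 (0.274 ± 0.129). The ranges of neighbours in the NC order overlapped, apart from Myl7 and Myl4. In MF the order was Myl7 (143 ± 139), Myh10 (56.4 ± 17.9), Myl4 (23.5 ± 16.4), Myh6 (19.2 ± 10.3), Myl3 (18.7 ± 9.63), Myh7 (10.7 ± 8.20), Myl2 (8.63 ± 6.95), Mylpf (6.05 ± 5.63), Myh3 (0.173 ± 0.250) and Myh13 (0.155 ± 0.133). The ranges of neighbours in the MF order all overlapped, apart from Mylpf, whose lowest value lay above the highest of Myh3.

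Partners of myosin in the thick filament were higher wherever they were in the tables. Of 17 listed genes 5 were deposited, all 5 higher, and 3 were tested and rose. For comparison with this list and those below, 62.1% of all tested genes rose and 35.4% fell by library totals. That split depends on scaling. Mybpc3, cardiac myosin-binding protein C, rose 6.97-fold from 0.962 ± 0.909 to 6.71 ± 2.45 FPKM, and Myom1, the M-band protein myomesin, rose 7.26-fold. Trim55, a muscle ubiquitin ligase, rose 10.2-fold. Ttn, the giant spring titin, was under the filter at 0.0243 ± 0.00885 FPKM in NC and 0.309 ± 0.175 in MF.

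Genes that fold, methylate or phosphorylate myosin or otherwise work with it went both ways. Of 19 listed genes 5 were deposited and tested, 4 rose and 1 fell. Smyd1, a muscle methyltransferase, rose 4.10-fold, and Unc45b, the myosin chaperone of striated muscle, rose 5.48-fold. In both the groups overlapped, because MF replicate 2 stood at 1.45 and 0.318 FPKM, inside the NC range. Myzap rose 3.37-fold, with MF values of 1.89, 2.02 and 1.92 FPKM. The chaperone Hsp90aa1 fell 2.13-fold, with an edgeR adjusted p that is just under the threshold.

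The thin filament list had 7 deposited members of 24, of which 6 rose and 1 fell. Its most abundant genes rose: Actc1 (cardiac actin) 5.81-fold, Tnni1 (slow troponin I) 11.9-fold, Actg2 (smooth muscle actin) 6.07-fold and Tnnt2 (cardiac troponin T) 11.4-fold. Actg2 overlapped between groups, with 1.87 FPKM in MF replicate 2. Of 26 unconventional myosins, many of which carry cargo or shape membranes, 3 were deposited. Myo1f fell 4.08-fold and Myo5c 2.64-fold, and Myo18b, a protein of striated muscle needed to build sarcomeres, was under the filter and went from 0.106 to 0.588 FPKM.

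Of 19 regulators of heart muscle 13 were deposited and all 13 rose by library totals. Their median log2 fold change was 2.75, beside 1.22 over all tested genes, of which 62.1% rose. The fibroblast markers listed below had a higher median, 3.64, and all 8 tested rose. The medians were 2.80 for cardiomyocyte, 2.48 for smooth muscle, 1.95 for endothelial and -2.48 for pluripotency markers. Among the most abundant, Hand1 rose 2.69-fold, Hand2 32.1-fold, Hey1 2.69-fold and Gata6 7.69-fold. Hand2 stood at 0.543, 0.238 and 2.96 FPKM in NC and at 59.1, 3.11 and 57.7 FPKM in MF. Its MF replicate 2 lay just above NC replicate 3, so the size of its rise rests on MF replicates 1 and 3. Gata6, a zinc finger factor of the early heart and endoderm, stood at 25.9, 2.19 and 23.3 FPKM in MF and, like Myl7, lay inside the NC range in MF replicate 2. Of 12 skeletal muscle regulators 2 were deposited. Mymx, which drives the fusion of myoblasts, fell 4.61-fold with overlapping groups, from 9.20, 14.1 and 4.76 FPKM to 0.457, 4.98 and 0.658. Eya1, a transcriptional cofactor, rose 3.36-fold.

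Markers of cell types moved with the myosins, and their part in the results was not tested. Of 15 cardiomyocyte markers 12 were deposited, with a summed level of 12.9 to 49.7 FPKM in NC and 116 to 310 FPKM in MF, and Smpx was at 0 counts in all NC libraries. Nppb, among the most abundant of them with Actc1, Tnnt2 and Mybpc3, rose 2.73-fold. Of 13 skeletal muscle markers 0 were deposited, so the skeletal chains stand without those markers here. Of 9 fibroblast markers 8 were deposited, with 98.7 to 251 FPKM in NC and 216 to 1114 FPKM in MF, the lowest MF value being replicate 2. Among them Col3a1 rose 29.2-fold and Postn 14.4-fold, and Col1a1 and Col1a2 rose 3.41-fold and 3.40-fold with overlapping groups. Of 10 smooth muscle markers 2 were deposited (1.44 to 2.46 FPKM in NC, 2.16 to 18.5 in MF), with MF replicate 2 the lowest there too. They are Actg2 and Synpo2, and Synpo2 rose 5.10-fold with overlapping groups. Of 8 endothelial markers 6 were deposited, and 5 rose and 1 fell, so their sum (13.5 to 44.5 FPKM in NC, 25.3 to 47.5 in MF) mixes both directions. Cdh5, Kdr and Esam rose 3.28-fold, 5.83-fold and 2.96-fold, and Pecam1 fell 2.75-fold, with 38.2 FPKM in NC replicate 2. The 2 deposited pluripotency markers of 10, Utf1 and Dppa3, summed to 168 to 408 FPKM in NC and to 15.7, 101 and 27.1 FPKM in MF replicates 1 to 3. Of 9 neural markers Dcx alone was deposited, at no more than 0.0794 FPKM in NC and at most 1.62 FPKM in MF, again in replicate 2.

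The profiles of the members over the 6 libraries were compared by the root-mean-square difference of log2(FPKM + 0.1) after centring each gene. With this offset the closest pair of members was Myh3 and Mylpf, at 0.15 log2 units, and the next was Myh7 and Myl4, at 0.46. The offset of 0.1 exceeds the FPKM of Myh3, Myh13, Foxr1 and Cd2 in MF replicates 1 and 3, so it flattens their profiles there. Without an offset, Myh3 lay at -5.66 and -5.43 log2 units from the NC mean in those libraries. Mylpf lay at -3.90 and -3.69, so the closeness of this pair depends on the offset. Myh6 and Myl3 differed by 0.62, and Myl2 and Myl7 by 2.26. Among all tested genes, those most like Mylpf were Myh3 (0.15), Foxr1 (0.20) and Cd2 (0.20), and those most like Myh3 were Foxr1 (0.14), Mylpf (0.15) and Ddx43 (0.18). For Myh13 they were Piwil2 (0.08), Rfx2 (0.22) and Aqp3 (0.22).

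The cardiac chains had other neighbours. The genes most like Myl7 were Hoxa11 (0.40), Gata6 (0.43) and Hoxa10 (0.47), and those most like Myh7 included Slc8a1 (0.28) and Unc5c (0.33). The offset exceeds the FPKM of Hoxa11 in every NC library (at most 0.0586) and in MF replicate 2 (0.0781). Hoxa11 rose 33.8-fold and Myl7 8.15-fold, so their closeness depends on the offset. It also exceeds the FPKM of Slc8a1 and Unc5c in NC replicate 2, of Tcap in NC replicate 1 and of Hspb7 in NC replicate 3. Myl4 was most like Hoxc9 (0.21), Nrp1 (0.23) and Hcn4 (0.23). Myl2 had no close neighbour: the nearest were Tcap (0.63), Hspb7 (0.79) and Dmrtc1a (0.98). Myh6 was nearest to Tmem132c (0.35), Dmrtc1a (0.35) and Smoc2 (0.44), Myl3 to Tbx1 (0.41), C1ql2 (0.43) and Tril (0.44), and Myh10 to Scnn1a (0.07), Atf7 (0.08) and Pja2 (0.08). These distances describe 6 libraries in 2 groups, and all the genes compared had been selected for a difference between those groups.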

How the data were processed

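RNA sequencing of poly-A RNA was analysed in 3 NC and 3 MF libraries. The submitters' processing notes name HISAT2 2.0.5, featureCounts and mm10 but give no settings. Per the file headers, the authors deposited for each library a raw count, an FPKM value and a normalized signal per gene, and, from a comparison of their own by a tool not named in these sources, a log2 fold change and a p-value, raw and adjusted. Count and deposited FPKM gave the library totals, used as library sizes. The tables hold 2031 genes. The 48 rows with no gene name took at most 0.0390% of a total and stayed out of the tests; 4 names turned into dates were restored by ID (1982 IDs matched).

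The 1651 named genes whose mean reached 0.5 FPKM entered edgeR 4.0.16 (R 4.3.3, quasi-likelihood, group as the only term, two-sided). SEs are the log2 fold change over the square root of F. Alternatives used DESeq2 1.42.0, limma 3.58.1 (pseudocounts 1 and 0.1), other scalings and filters, a replicate block and left-out libraries; leaving out both replicate 2 libraries was added after the data had been seen. The fit was tested on simulated counts that spread less than these libraries do and in which most genes were unchanged. That setting does not cover a table of genes selected for a difference. The members and gene lists were chosen with earlier results of these data known. All members are named; of each other list, the 4 deposited genes of highest mean FPKM; and for each member the 3 genes of nearest profile, without predicted models (1 of them is not reported here). Same-numbered libraries deviated together from their group means (correlations across genes 0.40, 0.54 and 0.35 for numbers 1, 2 and 3). NC replicate 3, however, went more closely with MF replicate 1 (0.54) than with its own number. The labels state no pairing, and a pairing by number would come from the values alone. The main fit therefore pairs no libraries, and the replicate block is an alternative only. Every pair of libraries differed by more than sampling noise (chi-square per degree of freedom at least 23.1). Depth sets a floor of 3 counts, which for 1 kb of gene length is 0.156 to 0.201 FPKM, for counting error only. Promoter windows came from RefSeq (GRCm38.p6), where all 10 members matched. Exon overlaps and shared stretches came from GENCODE M21, whose exon lengths equal the deposited gene lengths of the members.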

Additional observations from a re-analysis of the deposited data

How the results depend on the processing

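No member changed direction in 158 refits of single members over 16 alternatives. The members were selected for a difference in these same libraries, and some alternatives change only the filter or the adjustment. A constant direction is therefore not independent support. Of these refits 120 stayed past the threshold and 38 did not. The count of members higher in MF was 4 with median-of-ratios scaling and 0 when adjusted over 19069 tests, and it lay between 3 and 7 with 1 library left out. The count of members lower in MF was 1 with a filter at a mean of 2 FPKM, which removes Myh3 and Myh13, and 0 when adjusted over 19069 tests, and it lay between 0 and 3 with 1 library left out. The lowest counts, 3 and 0, came without MF replicate 3, where edgeR called 12 genes higher and 0 lower in all, with 6 and 2 members at an unadjusted p below 0.05. With MF replicate 1 left out they were 5 and 1, beside 357 and 90 of all 1651 genes, and without NC replicate 2 they were 6 and 1, beside 589 and 146. Over all tested genes median-of-ratios scaling called 158 higher and 507 lower, TMM 291 and 589, against 1026 and 584. With the replicate number as a block 6 members were higher and 3 lower, Myl7 being the 1 call it changed. Myh6, Myl2 and Myl3 passed in 15 of 16 alternatives, Myl7 in 7 and Myh10 in 8. Depth limits Myh3 and Myh13, which have 53 and 49 counts over the MF group, and Myl2, which has 25 over the NC group.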
